A study of Rattus norvegicus with 6 samples.

Results

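Tryptophan is broken down mainly through the kynurenine pathway, and expression of that pathway was followed in the metrial gland of pregnant rats after a week of low oxygen. The genes were chosen by name: the tryptophan-degrading enzymes Tdo2, Ido1, Afmid, Kmo, Kynu, Haao and Acmsd, the serotonin-forming enzyme Tph1, and Ahr, a receptor that kynurenine can activate. All probe sets (groups of short probes read out as 1 value) that the platform annotation gives to 1 of these genes were taken, with no filter on low values. That gave 11 probe sets for 8 of the 9 genes, out of 31042 probe sets tested and 14217 genes named on the array; Tph1 was not analysed here. Afmid had 3 probe sets and Ahr 2.

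The series compared 3 ambient arrays, from rats kept at 21% oxygen, with 3 hypoxia arrays, from rats kept at 10.5% oxygen between gestation days 6.5 and 13.5; the tissue was taken after the exposure. The metrial gland is maternal uterine wall behind the placenta, with decidual stroma, vessels and uterine natural killer cells, into which trophoblast migrates. No genotype, transgene or drug is named for either group, and the sources used here give neither strain nor maternal age. Nothing in the labels says that the replicates of a group were separate animals or whether tissue was pooled, so the p-values cover only the variation among these arrays, and that variation may be technical.

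The pathway opens with a dioxygenase step. Tdo2 or Ido1 opens the indole ring of tryptophan to give N-formylkynurenine, and Afmid hydrolyses this to kynurenine. Kmo, Kynu and Haao carry kynurenine on towards quinolinate and NAD, Acmsd diverts an intermediate away from quinolinate, and transaminases such as Aadat turn kynurenine into kynurenic acid. At the maternal-fetal interface the pathway is known for depleting tryptophan and for restraining T cells, and Tdo2 is known as a gene of rodent decidua.

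Across the pathway, Tdo2 fell in hypoxia by 1.17 on the log2 scale, or 2.26-fold, and was the only member probe set of the 11 to pass the threshold, an adjusted p of 0.05 (limma, adjusted over all 31042 probe sets). No member rose, and 10 of the 11 did not pass. Over all probe sets 1.12% were called lower and 2.34% higher. The point estimate was lower in hypoxia at 10 of the 11 and higher at 1, with a median difference of -0.25 against -0.02 for all 31042. The 10 include 3 probe sets of the single gene Afmid, and Ido1, Kmo, Acmsd and both Ahr probe sets, which lay at or near control level. The share of all probe sets with a lower point estimate is not given here. The groups did not overlap, with hypoxia lower, at 6 of the 11, against 13.7% of all probe sets; the 6 belong to 5 genes, since 2 are probe sets of Afmid, and Acmsd and Ido1 lay at or near control level.

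Levels are log2 expression values, and a probe set was taken as measured on an array where it stood above every one of the 27 bacterial control probe sets of that array, the highest of which lay between 4.81 and 5.003. By that measure Tdo2, Haao and the 3 Afmid probe sets were measured on all 6 arrays, Ido1 and both Ahr probe sets on some, and Kmo, Kynu and Acmsd on none. Values of different probe sets cannot be ranked against each other, because probes differ in how strongly they bind.

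**Figure D1:**
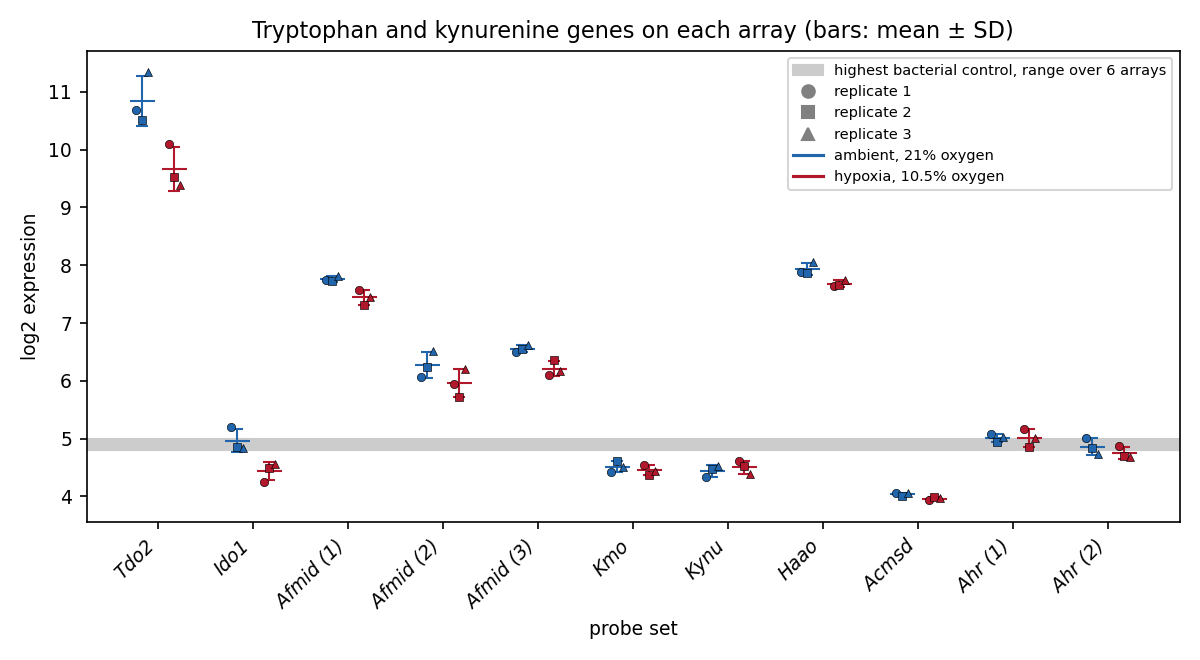
Log2 expression (vertical axis) of the 11 member probe sets (horizontal axis; numbers in brackets mark several probe sets of 1 gene) on the 3 ambient (blue) and 3 hypoxia (red) arrays, with group mean and SD. The grey band is the range of the highest bacterial control over the arrays: Tdo2, Afmid and Haao lie above it on every array, while Kmo, Kynu and Acmsd lie below it.

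The promoters of Tdo2, Haao and Aadat are shown. Tdo2 was the only member to pass the threshold, and Haao is the later enzyme that was measured on every array. Aadat rose the most of the surrounding pathway genes. Each window runs from 250 bases before to 50 after the start site, 5' to 3' on the gene's strand, from RefSeq on GRCr8; windows were found for 7 of the 9 members, without Ido1 and Acmsd. The windows are chr2:169585537-169585836 (minus strand) for Tdo2, chr6:16598075-16598374 (plus strand) for Haao and chr16:34555131-34555430 (minus strand) for Aadat. Capitals mark matches on either strand to ACGTG or GCGTG, the cores bound by hypoxia-inducible factors, the second of which is also the core bound by Ahr with its partner Arnt.
Tdo2: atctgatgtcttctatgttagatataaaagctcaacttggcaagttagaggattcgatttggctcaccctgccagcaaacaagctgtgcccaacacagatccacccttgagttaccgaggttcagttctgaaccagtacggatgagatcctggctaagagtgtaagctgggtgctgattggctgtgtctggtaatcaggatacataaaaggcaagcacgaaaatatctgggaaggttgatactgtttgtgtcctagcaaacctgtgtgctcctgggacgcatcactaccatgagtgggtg
Haao: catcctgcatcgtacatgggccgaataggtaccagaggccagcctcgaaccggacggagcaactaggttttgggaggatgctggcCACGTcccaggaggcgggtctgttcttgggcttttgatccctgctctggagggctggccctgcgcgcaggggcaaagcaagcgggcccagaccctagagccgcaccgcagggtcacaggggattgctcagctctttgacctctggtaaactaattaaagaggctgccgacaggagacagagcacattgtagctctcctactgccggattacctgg
Aadat: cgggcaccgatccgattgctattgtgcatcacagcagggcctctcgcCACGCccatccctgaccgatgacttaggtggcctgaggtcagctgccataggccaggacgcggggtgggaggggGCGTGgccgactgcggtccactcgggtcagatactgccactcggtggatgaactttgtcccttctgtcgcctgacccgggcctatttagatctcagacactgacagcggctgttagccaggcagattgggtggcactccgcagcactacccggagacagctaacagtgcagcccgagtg

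Tdo2 held no match in this window, Haao held 1 to ACGTG, 165 bases before the start site, and Aadat held 2 to GCGTG, 203 and 129 bases before it. Of all 33465 windows of this length 19.3% hold ACGTG and 29.7% hold GCGTG, on either strand; the 2 motifs share the letters CGTG. Among the members, Tph1 also held ACGTG, 88 bases before its start. A match is a stretch of letters, not a shown binding site.

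Tdo2, the tryptophan dioxygenase best known from liver, stood at 10.68, 10.51 and 11.34 on ambient replicates 1, 2 and 3 and at 10.10, 9.52 and 9.38 on hypoxia replicates 1, 2 and 3. All hypoxia arrays lay below all ambient arrays, with ambient replicate 3 highest and hypoxia replicate 3 lowest. The group levels were 10.84 ± 0.44 and 9.67 ± 0.38 (SD, n = 3 each), a difference of -1.17 (SE 0.23, 95% interval -1.70 to -0.65, limma adjusted p = 0.0329). The call held in 10 of 15 alternatives and the adjusted p ranged from 0.0214 to 0.0976 over them. Removal of replicate 1 (0.0735) or replicate 3 (0.0826) of the ambient group, or of replicate 2 (0.0976) or replicate 3 (0.0667) of the hypoxia group, ended it, as did a robust trend (0.0734). The difference without ambient replicate 3 was -0.93.

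In whole tissue, fewer cells that express a gene and less RNA per cell cannot be told apart. Liver is a known site of Tdo2 expression. As a base for the marker counts, 3.11% of all 14217 named genes were called higher and 1.51% lower. Of 11 yolk sac and liver markers 6 were above the bacterial controls on all arrays and 4 (Afp, Apoa1, Fgb and Cps1) on none; 1 fell (Serpina1, by -0.63) and 0 rose. The summed linear signal of the list was 460 to 516 in ambient and 437 to 461 in hypoxia. Of 15 decidual stroma markers, all measured on every array, 3 rose (Hand2 by 0.64, Bmp2 by 0.91 and Cryab by 1.16), 0 fell and 12 did not pass. Their summed signal was 96722 to 102591 in ambient and 110003 to 126547 in hypoxia, while the list median difference was 0.03. Such a sum rests most on the probe sets with the highest values. The decidual factors Hoxa10 and Pgr differed by 0.003 (SE 0.05) and 0.23 (SE 0.11), and Igfbp1, a secreted product of decidual cells, stood at 8.08 in ambient and 6.14 in hypoxia with an adjusted p of 0.0518. Prl8a2, a decidual prolactin, stood at 11.51 in ambient and 13.24 in hypoxia with an adjusted p of 0.0676.

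Markers of other cell types also differed between the groups, some lower and some higher in hypoxia, and their part in the fall of Tdo2 was not tested. The counts below stand beside 3.11% called higher and 1.51% called lower among all 14217 named genes. Of 8 epithelial markers, 2 fell, 0 rose, 6 did not pass and 1 (Cldn4) was above the controls on no array. Epcam fell by 1.77 and Cdh1 fell by 1.07; the summed signal was 959 to 1319 in ambient and 582 to 876 in hypoxia. Of 11 natural killer cell markers 4 fell (Nkg7, Il2rb, Eomes and Cst7), 0 rose and 7 did not pass, with Gzma at control level. Their summed signal was 46773 to 53410 in ambient and 38293 to 42249 in hypoxia. Prf1 and Gzmb, which weigh most in that sum, differed by -0.27 and -0.20 without passing (limma adjusted p 0.121 and 0.0961). Klrd1 differed by 0.52 (adjusted p 0.212). Of 12 trophoblast markers 8 rose and 0 fell. Their summed signal was 9154, 7759 and 3487 on ambient replicates 1, 2 and 3 and 16760 to 24702 in hypoxia. That sum rests most on the prolactin genes Prl5a1, Prl7b1 and Prl2a1. Of 9 endothelial markers 5 rose and 0 fell (6657 to 7010 against 7812 to 8546). Of 11 mast cell and platelet markers 1 rose and 0 fell, with a list median difference of 0.07 (746 to 810 against 1014 to 1104, with Hdc and Fcer1a at control level). For beta-actin, the control probe set at the 3' end read 0.41 to 0.54 above the one at the 5' end in ambient and 0.58 to 0.77 above it in hypoxia, a gap that grows as RNA degrades. The same gap for Gapdh was -0.047 to -0.008 in ambient and -0.040 to 0.057 in hypoxia, with overlapping groups; their part was not tested either.

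Among 14216 other named genes, the 5 whose profile lay closest to that of Tdo2 were RT1-T24-4, Atp6v0a4, Aqp5, Napsa and Perp. Closeness was the root mean square difference between log2 profiles over the 6 arrays, each less its own mean, and it ran from 0.19 for RT1-T24-4 to 0.27 for Perp, against an SD of 0.74 for Tdo2 over the arrays. RT1-T24-4 is a class I histocompatibility gene whose probes can bind its close relatives; Atp6v0a4 is a proton pump subunit, Aqp5 a water channel, Napsa an aspartic protease and Perp a desmosomal protein. RT1-T24-4, Atp6v0a4 and Perp shared the peak on ambient replicate 3. RT1-T24-4 stood at 11.49 there, and its lowest values, 9.49 and 9.39, fell on hypoxia replicates 2 and 3 as did those of Tdo2. These 5 were chosen by their values on these arrays, so their likeness is a description.

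**Figure D2:**
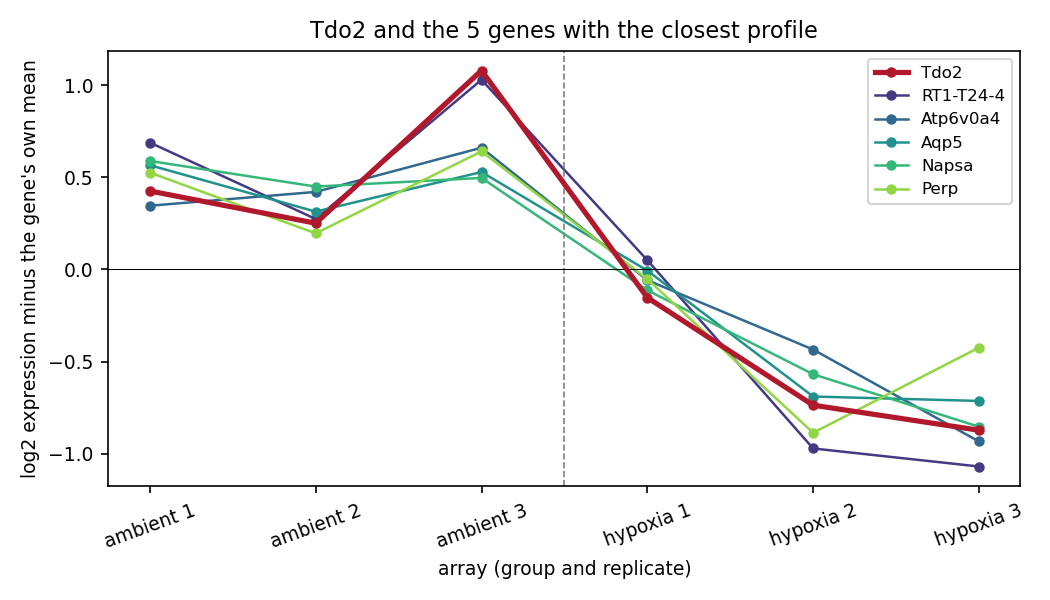
Log2 expression less each gene's own mean over the 6 arrays (vertical axis), for Tdo2 and the 5 genes with the smallest root mean square difference from it, by array (horizontal axis; the lines only link the values of 1 gene). The 6 genes lie higher on the ambient arrays than on the hypoxia arrays, and 4 of them (Tdo2, RT1-T24-4, Atp6v0a4 and Perp) peak on ambient replicate 3.

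Ido1, the dioxygenase that interferon gamma induces, stood at 5.20, 4.86 and 4.84 on ambient replicates 1, 2 and 3 and at 4.26, 4.50 and 4.56 in hypoxia. Only ambient replicate 1 exceeded the highest bacterial control of its own array, so the signal lay at or near background throughout, although the groups did not overlap. The difference was -0.53 (SE 0.12, 95% interval -0.80 to -0.25) with a limma adjusted p of 0.0518, just outside the threshold, and no fold is given. It passed in 2 of 13 alternatives, array weights (0.0483) and a robust trend (0.0476), over a range from 0.0476 to 0.143. In the RefSeq table of GRCr8 a long non-coding gene, LOC108348416, overlaps Ido1, and Ido2 lies beside it; Ido2 was not analysed here.

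Afmid, the formamidase that releases kynurenine, had lower hypoxia means at all 3 of its probe sets, and none passed. The first stood at 7.75, 7.72 and 7.81 in ambient and at 7.57, 7.31 and 7.46 in hypoxia, with groups that did not overlap. Its difference was -0.32 (SE 0.09, 95% interval -0.52 to -0.11, limma adjusted p = 0.0994). The second differed by -0.32 (SE 0.15, adjusted p = 0.295) with overlapping groups, and the third by -0.35 (SE 0.10, adjusted p = 0.096) without overlap. The second and the third were designed from the same transcript sequence, and the x in the name of the third marks probes that can bind other transcripts. All 3 also read 1 gene on the same arrays, so they are not independent measurements. None was called in any of its alternatives, where the adjusted p was at least 0.0655, 0.154 and 0.0645.

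Haao, which oxidises 3-hydroxyanthranilate to the precursor of quinolinate, was the only measured enzyme of the steps from kynurenine to quinolinate. It stood at 7.88, 7.86 and 8.05 in ambient and at 7.64, 7.65 and 7.75 in hypoxia. Every hypoxia array lay below every ambient array, by a small margin. The difference was -0.25 (SE 0.09, 95% interval -0.44 to -0.05, limma adjusted p = 0.156), and it passed in 0 of 15 alternatives.

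Kmo, the kynurenine hydroxylase of the mitochondrial outer membrane, ranged from 4.37 to 4.62 over the 6 arrays, Kynu, the hydrolase that follows it, from 4.33 to 4.61, and Acmsd from 3.93 to 4.06. None of these values exceeded the bacterial controls, so each gives only an upper bound on expression and no fold. Kynu had the only positive point estimate, 0.06 (SE 0.09), and Kmo differed by -0.06 (SE 0.08). Acmsd differed by -0.08 (SE 0.06) with groups that did not overlap.

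**Figure D3:**
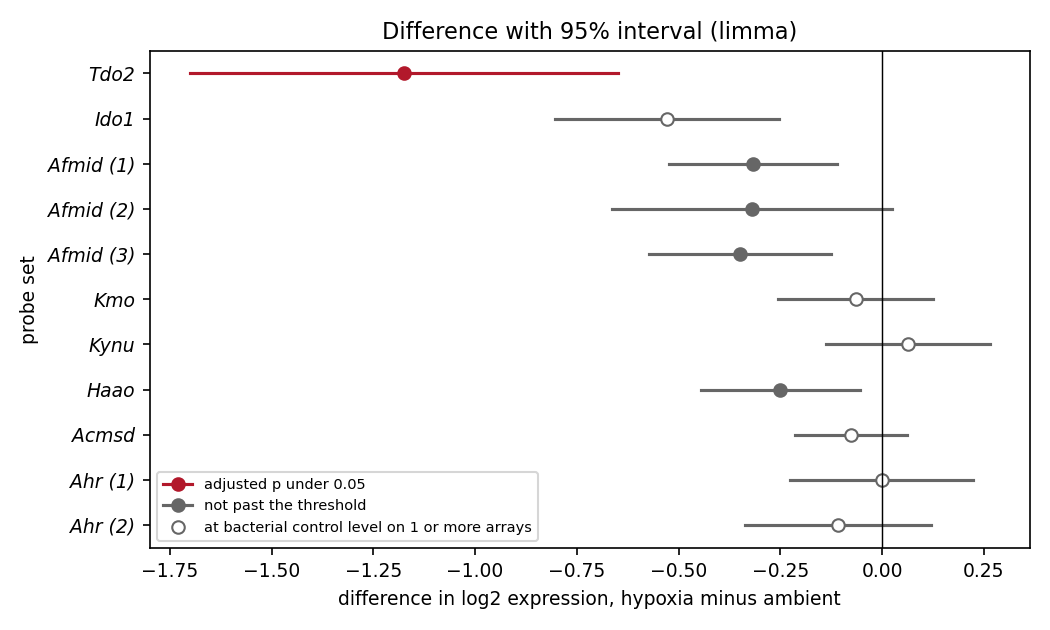
Difference in log2 expression, hypoxia minus ambient (horizontal axis), with the 95% interval from limma, for each member probe set (vertical axis); open symbols lay at bacterial control level on at least 1 array. Tdo2, at -1.17, is the only one past the threshold, and the intervals of Ido1, Haao and the first and the third of the Afmid probe sets also lie below 0.

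Ahr, the receptor that kynurenine can activate, lay just around the controls. Its first probe set stood at 5.08, 4.94 and 5.03 in ambient and at 5.17, 4.86 and 5.02 in hypoxia, and the groups overlapped. The difference was -0.001 (SE 0.10) with a 95% interval from -0.23 to 0.22, and its sign varied with the settings. The second exceeded the controls on 1 array and differed by -0.11 (SE 0.10, 95% interval -0.34 to 0.12).

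The genes around the pathway were read from 5 lists holding 79 genes, 67 of them with a named probe set; for each gene the probe set with the highest mean was used. Of the 67, 5 rose, 1 fell and 61 did not pass, beside 3.11% called higher and 1.51% called lower among all 14217 named genes. The 6 were spread over the 5 lists: Slc7a8 and Slc3a2, Aadat, Htr2b, Arnt2 and Irf8.

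**Figure D4:**
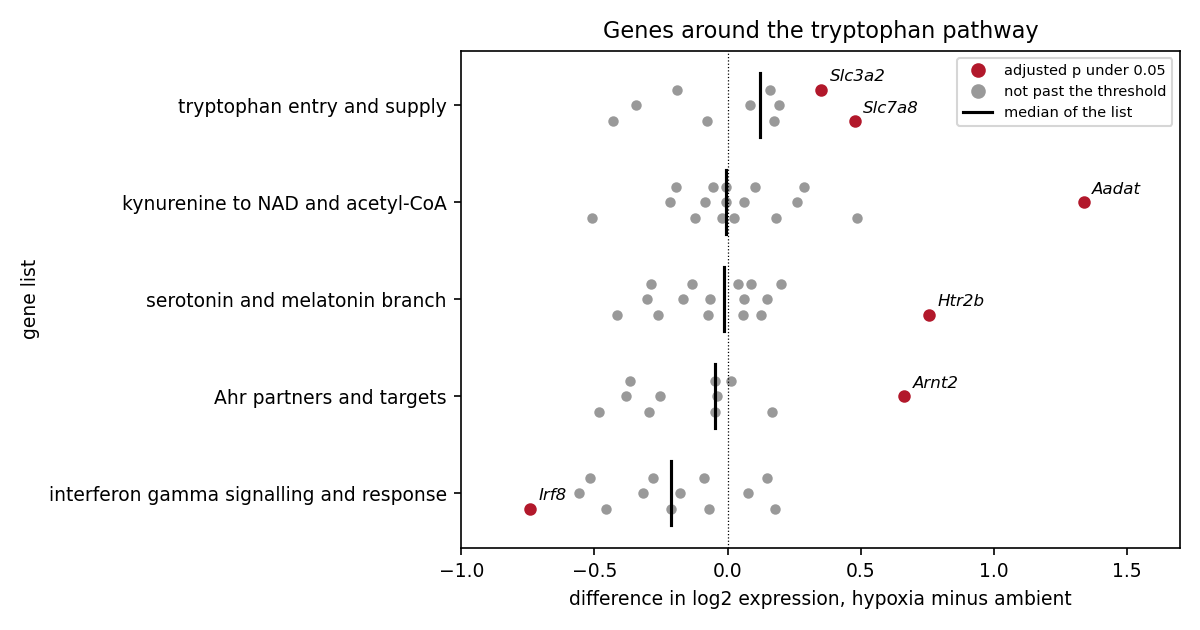
Difference in log2 expression, hypoxia minus ambient (horizontal axis), of 67 genes in 5 lists around the tryptophan pathway (vertical axis), with the median of each list as a black line. Aadat, at 1.34, lies farthest to the right and Irf8, at -0.74, farthest to the left.

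Downstream of kynurenine, Aadat, a transaminase that makes kynurenic acid, rose 2.53-fold. It stood at 6.53, 6.75 and 6.26 in ambient and at 7.90, 7.13 and 8.53 in hypoxia, so that hypoxia replicate 3 was highest and the groups did not overlap. The difference was 1.34 (SE 0.30, 95% interval 0.67 to 2.01, limma adjusted p = 0.0474). The call held in 6 of 14 alternatives, over a range from 0.00854 to 0.163, and ended on removal of any single array other than hypoxia replicate 2, with an offset of 64 (0.0621), no variance trend (0.0606) or a robust trend (0.0899). Aadat was the only one of 17 genes of its list to pass (list median -0.01). Of the other transaminases in the list, Kyat3 differed by 0.49 (SE 0.15, adjusted p = 0.12) without overlap. Kyat1 differed by 0.10 (SE 0.09) and Got2 by -0.006 (SE 0.06). Qprt, which turns quinolinate into the NAD precursor, differed by 0.18 (SE 0.13), and by -0.17 (SE 0.14) at its other probe set.

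Tryptophan can enter cells through amino acid transporters built from a heavy and a light chain. In the list of tryptophan entry and supply 2 of 10 genes rose while 0 fell (list median 0.12). Slc7a8, a light chain that carries large neutral amino acids, stood at 8.57, 8.55 and 8.73 in ambient and at 9.10, 9.22 and 8.96 in hypoxia, and rose by 0.48 (SE 0.09, limma adjusted p = 0.0283). Slc3a2, the heavy chain it pairs with, rose by 0.35 (SE 0.08, adjusted p = 0.0485), from 10.62 ± 0.14 to 10.97 ± 0.05. Slc7a5, the alternative light chain, differed by 0.08 (SE 0.13, 95% interval -0.21 to 0.38). The call of Slc7a8 ended on removal of any single array other than hypoxia replicate 3 (highest adjusted p 0.0977). That of Slc3a2 ended on removal of any single array other than ambient replicate 3 (highest 0.144), with quantile normalization (0.0551), an offset of 64 (0.0506), no variance trend (0.0783) and the replicate block (0.0524).

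In the serotonin branch 1 of 16 genes rose and 0 fell (list median -0.01). Htr2b, a serotonin receptor, stood at 6.51, 6.58 and 6.83 in ambient and at 7.67, 7.28 and 7.25 in hypoxia, without overlap, and rose by 0.76 (SE 0.14, limma adjusted p = 0.0234). Removal of replicate 1 or replicate 2 of the ambient group or replicate 1 of the hypoxia group ended its call (highest adjusted p 0.0818). Ddc, which makes serotonin from 5-hydroxytryptophan, differed by -0.07 (SE 0.14), and Maoa, which breaks serotonin down, by 0.13 (SE 0.08). Tph2 was not analysed here.

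Of 11 partners and targets of Ahr, 1 rose and 0 fell (list median -0.05). Arnt2, a relative of the Ahr partner Arnt, rose by 0.67 (SE 0.12, limma adjusted p = 0.0259), from 6.43 ± 0.10 to 7.09 ± 0.22, while its other probe set differed by -0.13 (SE 0.11) and did not pass. The call ended on removal of any single array other than hypoxia replicate 1 (highest adjusted p 0.105). Arnt itself stood at 7.31 ± 0.05 and 6.93 ± 0.22 (difference -0.38, SE 0.12, adjusted p = 0.121). Among genes that Ahr is known to induce, Cyp1b1 differed by -0.48 (SE 0.18, adjusted p = 0.178), while Cyp1a1 was above the controls on no array, as was the Ahr repressor Ahrr. Of the other targets listed, Tiparp differed by -0.05 (SE 0.09), Nqo1 by 0.01 (SE 0.07) and Aldh3a1 by 0.17 (SE 0.14). Cyp1a2, above the controls on 4 arrays, differed by -0.37 (SE 0.11, adjusted p = 0.114).

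Of 13 genes of interferon gamma signalling and response, 1 fell and 0 rose (list median -0.21). Irf8, an interferon-responsive transcription factor of myeloid cells, stood at 10.95, 11.14 and 11.40 in ambient and at 10.42, 10.18 and 10.67 in hypoxia, and fell by 0.74 (SE 0.14, limma adjusted p = 0.0268). Removal of replicate 2 or replicate 3 of the ambient group, or replicate 1 or replicate 2 of the hypoxia group, ended its call (highest adjusted p 0.0956). Of 12 macrophage and dendritic cell markers, 1 fell and 0 rose, beside 1.51% called lower and 3.11% called higher among all 14217 named genes. All 12 were measured on every array, and their summed signal was 8243 to 9277 in ambient and 7175 to 7998 in hypoxia. Their part in the fall of Irf8 was not tested. Ifng lay between 3.48 and 3.75 on all 6 arrays, at control level.

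Second probe sets of 2 pathway genes also passed, and these genes are named after their values were seen. The number of second probe sets looked at is not given here, and 1.12% of all probe sets were called lower. Hsp90ab1, a chaperone that holds Ahr in the cytosol, fell by 0.38 (SE 0.08, adjusted p = 0.0377) at its second probe set, and the first differed by -0.25 (adjusted p = 0.0564). Nampt, the salvage enzyme that makes NAD from nicotinamide, fell by 0.42 (SE 0.09, adjusted p = 0.0428) at its second probe set, and the first differed by -0.19 (adjusted p = 0.199). Over their alternatives the adjusted p ranged from 0.0115 to 0.137 for Hsp90ab1 and from 0.0325 to 0.149 for Nampt.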

How the data were processed

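Total RNA from 6 metrial gland samples was measured on single-channel Affymetrix rat arrays. The authors' deposited values are log2 expression, 1 per probe set and array, a scale read from their range. MAS5 and Affymetrix Expression Console appear in the submitters' processing notes, without roles. How background was corrected and probes summarized is not given in the sources used here. Array medians lay between 6.44 and 6.47, so a shift common to most genes would not show.

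After 57 controls were left out, hypoxia was compared with ambient over 31042 probe sets in R 4.3.3 with limma 3.58.1 (lmFit, eBayes with a mean-variance trend, two-sided, Benjamini-Hochberg adjustment, threshold 0.05), n = 3 arrays per group. The same code was also run on simulated data. There only probe sets above the median ambient level were changed, so that run does not bear on members near control level. No filter on low means was used, unlike a 40% filter among the alternatives. Of these probe sets 20826 carried 1 symbol, 436 several and 9780 none; 20758 matched the RefSeq table of GRCr8. Summed signals add 2 to the power of the log2 values. Array number limits precision.

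The members and lists were chosen with earlier results of these data known. The naming rule took all members, up to 6 called genes per list (or 2 where none passed), a fixed set of pathway genes and the 5 closest profiles.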

Additional observations from a re-analysis of the deposited data

How the results depend on the processing

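With 1 array left out, the count of all probe sets called higher, 726 with all arrays, lay between 257 and 708, and that called lower, 347 with all arrays, between 53 and 368. The 2 arms then hold 3 and 2 arrays and share 1 estimate of spread. Member probe sets called lower were 1 with all arrays, 0 to 1 with 1 array left out, 1 with the 40% filter (5 of the 11 member probe sets kept) and 2 with array weights. Pathway genes called were 6, 1 to 5 with 1 array left out and 10 with the replicate number as a block. That replicate block called 556 probe sets lower and changed no member's call; of the 15 pathway genes followed through the alternatives, it ended the call of Slc3a2. Same-numbered arrays deviated from their group means with correlations of -0.03, 0.06 and 0.03 over all probe sets. The labels do not say whether the numbers pair the samples, and with 3 arrays per group these correlations cannot decide it. The call of Tdo2 ended on removal of ambient replicate 1 or 3 or hypoxia replicate 2 or 3, which also leaves fewer arrays. Its direction held in all 15 alternatives.

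Of 26 single results, 4 changed sign, and none of the 4 had passed. The first Ahr probe set moved from -0.001 to 0.0393 with quantile normalization, 0.000628 with an offset of 64 and 0.039 with array weights, and lay between -0.0794 and 0.0776 with 1 array left out (0.030 and 0.00481 on removal of replicates 1 and 3 of the ambient group). With 1 array left out Ahrr lay between -0.0932 and 0.00588, Ddc between -0.159 and 0.0838, and Slc7a5 between -0.0383 and 0.197; the cause was not tested. Signal over background limits Ido1, Ahr, Kmo, Kynu and Acmsd.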
